A study of Mus musculus with 16 samples.

Results

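Celiac ganglia of 2-week-old mice that carried the MYCN transgene were compared with celiac ganglia of mice that lacked it, all of them with wild-type Runx1t1. The libraries were taken by their labels alone: 3 were from Th-MYCN homozygous mice (MYCN ganglia, replicates 1, 3 and 4) and 4 from mice without the transgene (transgene-free ganglia, replicates 1 to 4), which makes 7 of the 16 libraries of the series. All genes were considered, 24411 in the table, of which 16665 had enough counts to be tested. The other libraries were 3 transgene-free and 2 MYCN ganglia labelled Runx1t1 heterozygous (het, 1 functional allele) and 4 Th-MYCN tumors in which Runx1t1 was wild-type too. The study asked how the co-repressor Runx1t1 bears on neuroblastoma driven by MYCN, and the comparison described here gives the difference that goes with the transgene when both Runx1t1 alleles are intact.

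In the Th-MYCN line, of 129/SvJ background, the tyrosine hydroxylase promoter directs a human MYCN transgene to cells of neuroectodermal origin. The Runx1t1 knock-out line, of CBB6 origin, was crossed into it, and the labels do not say whether the 7 ganglia came from littermates. No ganglion was treated, and mice of both sexes were used. RNA of Ddx3y, a gene of the Y chromosome, exceeded 1 CPM (counts scaled to library size) in 1 transgene-free ganglion, replicate 2, and 1 MYCN ganglion, replicate 4. A whole ganglion was sequenced, so each library mixes neurons and neuroblasts with glia, connective tissue, vessels and blood, and the transgene is expected to be on in only some of these cells. The labels do not say whether replicates came from separate mice, and p-values then measure only the spread between these libraries.

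MYCN is a transcription factor of the MYC family that pairs with MAX, binds DNA motifs called E-boxes, and drives cell growth and division. The celiac ganglion is a sympathetic ganglion whose neurons descend from neural crest neuroblasts, stop dividing as they mature, and make noradrenaline. In Th-MYCN mice clusters of neuroblasts can persist in such ganglia after birth and are regarded as the source of the tumors.

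Sequencing depth ran from 10692291 to 33257618 counts in the transgene-free ganglia and from 11240437 to 35779875 in the MYCN ganglia. Levels are given as these CPM, normalized by the trimmed mean of M values (TMM), which corrects for library composition. The tissue carried the defining markers of sympathetic ganglia in each library: Th, the first enzyme of noradrenaline synthesis, lay between 552 and 1240 CPM in transgene-free and between 288 and 818 CPM in MYCN ganglia, and the glial regulator Sox10 between 64.7 and 196 and between 46.1 and 146 CPM. The 7 pancreas markers, the tissue next to the ganglion, summed to at most 4.90 CPM in any of the 7 ganglia. Sums for some other tissues were larger and uneven. Fat markers reached 1061 CPM in MYCN replicate 3, against 33.7 CPM in MYCN replicate 1, and 725 CPM in transgene-free replicate 3. Liver markers reached 234 CPM in MYCN replicate 4, skeletal muscle markers 154 CPM in MYCN replicate 3 and adrenal cortex markers 83.4 CPM in transgene-free replicate 3. Transgene-free replicate 2 stood apart. Its 12 lymphocyte markers summed to 1297 CPM, against 7.18 to 20.3 CPM in the other transgene-free ganglia and 8.05 to 22.1 CPM in the MYCN ganglia, and its 12 myeloid markers to 1091 CPM, against 54.3 to 136 CPM and 85.3 to 225 CPM. It also had the lowest sum of sympathetic neuron markers, 7894 CPM against 13140 to 20910 CPM in the rest of its group. Among the MYCN ganglia, replicate 1 had the lowest sums of glia (604 CPM), fibroblast (2012 CPM), endothelial (72.2 CPM) and erythroid (60.7 CPM) markers, and ribosomal RNA (Rn45s) took 8.80% of its counts, against 2.34% to 5.64% in the other 6 ganglia. The part of these differences in the results was not tested. In whole tissue, fewer cells of a type and less RNA per cell cannot be told apart.

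With the transgene, 139 genes were higher and 17 lower at an adjusted p under 0.05 (edgeR's quasi-likelihood test fitted to all 16 libraries in 5 groups, Benjamini-Hochberg adjustment). These are 0.834% and 0.102% of the genes tested, 0.936% together. The higher genes held neurogenic transcription factors (Neurod1, Neurod6, Nhlh2, Sox11), markers of immature neurons (Dcx, Dlk1), genes of the cell cycle (Nasp, Ube2c) and Runx1t1 itself. The lower genes included the acid-sensing channel Asic1, the cholecystokinin receptor Cckar, the synaptotagmin Syt10 and Tmed8, a TMED family protein. The smallest adjusted p was 0.0263, and 3302 genes had an unadjusted p under 0.05. Of the higher genes, 125 differed at least 2-fold and 82 at least 4-fold, and of the lower genes 13 at least 2-fold. The log2 fold change ran from 0.63 to 11.16 (median 2.44) in the higher and from -2.93 to -0.72 (median -1.30) in the lower genes, where the very large values belong to genes with almost no counts in transgene-free ganglia and depend on the prior count of the fit.

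**Figure D1:**
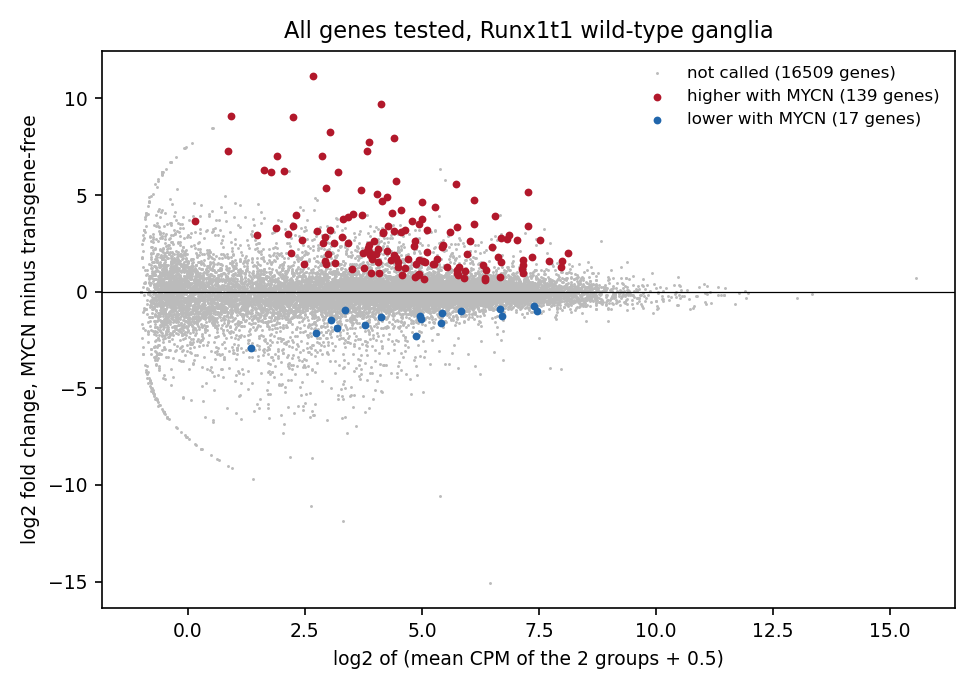
Each point is 1 of the 16665 genes tested, with its mean level in both groups on the x axis (log2 of mean CPM + 0.5) and the log2 fold change of MYCN minus transgene-free ganglia on the y axis. Red points are the 139 higher and blue points the 17 lower genes at an adjusted p under 0.05; many grey points with large folds, several of them negative, did not pass.

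How many genes passed depended on which libraries entered the fit. With only the 2 groups compared, edgeR called 0 genes (1789 with an unadjusted p under 0.05), and with the 12 ganglia without the tumors it called 0 (3174), where the smallest adjusted p was 0.0736. Without the lymphocyte-rich transgene-free replicate 2 it called 572 higher and 103 lower genes, and without MYCN replicate 3 it called 1458 and 353. All 156 genes were among those called in both of these fits. Without MYCN replicate 1 or 4, or without transgene-free replicate 1, 3 or 4, it called 0, with 1381, 2324, 3246, 3003 and 2936 genes at an unadjusted p under 0.05. DESeq2 called 930 higher and 355 lower genes on all libraries, and limma voom with sample weights 2796 and 2530. In the fits of all 7 ganglia and in those that left out 1 of them, every one of the 156 genes that was tested kept the sign of its fold change. These fits share libraries with the one that chose the genes, so the kept sign is a description and not a test.

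**Figure D2:**
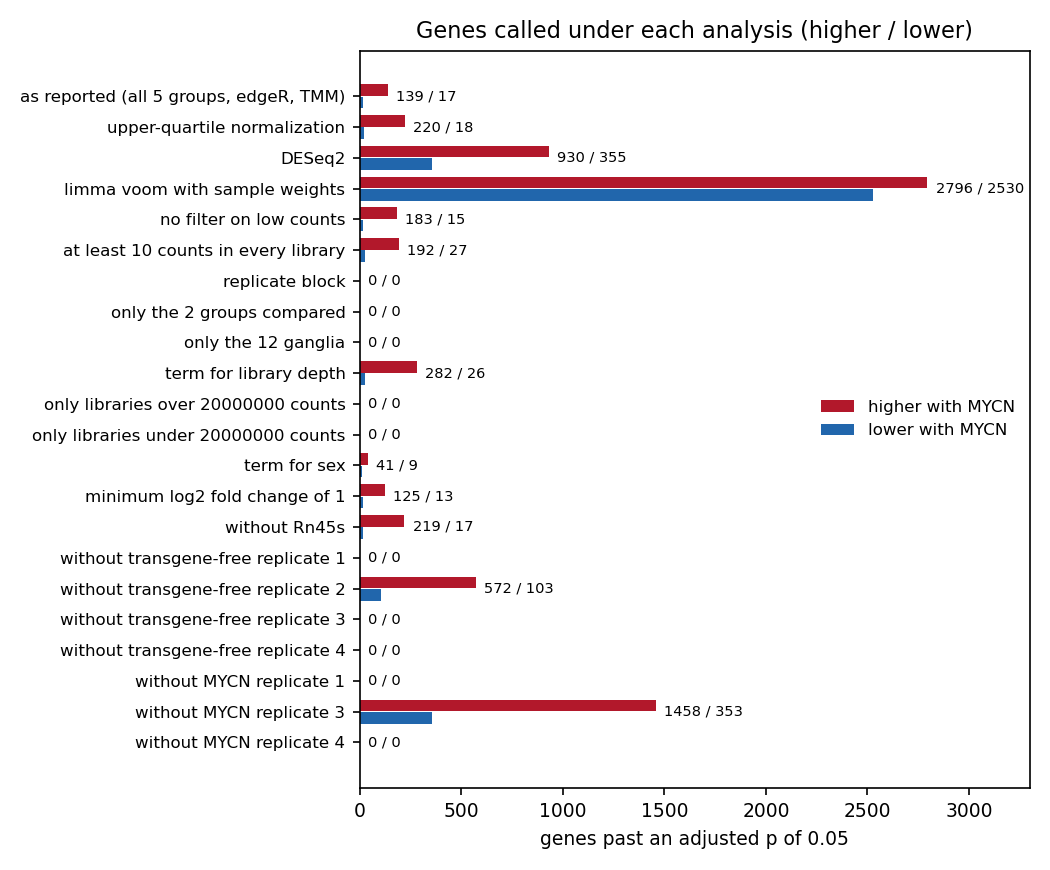
Bars give the number of genes past an adjusted p of 0.05 under each analysis, higher with MYCN in red and lower in blue, with both counts printed beside them. The counts range from 0 in several fits to 2796 and 2530 with limma voom and sample weights.

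Runx1t1, the co-repressor the study is about (chr4:13743436-13893649, GRCm38), rose with the transgene. It was at 8.48, 10.8, 13.1 and 12.2 CPM in transgene-free replicates 1 to 4 and at 243, 23.4 and 111 CPM in MYCN replicates 1, 3 and 4. Every MYCN ganglion lay above every transgene-free one, but the MYCN ganglia themselves differed 10.4-fold. The log2 fold change was 3.49 ± 0.55 (SE) with an adjusted p of 0.0296 (edgeR), and the means were 11.1 ± 2.02 and 126 ± 111 CPM (SD, n = 4 and 3). Mouse Mycn did not pass: it was at 67.7, 28.4, 39.3 and 50.7 CPM without and at 54.6, 57.3 and 55.6 CPM with the transgene, within the transgene-free range (log2 0.26 ± 0.43, adjusted p = 0.777, edgeR). The transgene is human MYCN, whose RNA was not analysed here, so Mycn does not check the labels. Its partner Max was at 43.1 ± 3.57 and 47.3 ± 5.97 CPM (SD, n = 4 and 3; adjusted p = 0.592, edgeR), and Hand2, a sympathetic transcription factor that recruits Runx1t1, at 677 ± 265.5 and 693 ± 52.1 CPM (adjusted p = 0.966, edgeR). Gspt1, Clns1a and Nap1l1, which the study also followed, had log2 fold changes of 0.20, 0.33 and 0.21, none past the threshold.

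Neurogenic transcription factors, which switch on neuronal genes in neuroblasts, were higher in 7 of 22 tested members and lower in none, against 0.834% of all genes called higher. Their median log2 fold change was 1.74, against -0.04 over all genes tested. It ranged from 1.09 without MYCN replicate 1 to 2.13 without MYCN replicate 3, where 13 of the 22 passed, against 8.76% of all genes called higher. Neurod1, a driver of neuronal differentiation, had 0 counts in all 4 transgene-free ganglia and was at 33.1, 0.496 and 1.83 CPM in MYCN replicates 1, 3 and 4. It was at least 68.0-fold higher with the transgene, against a floor of 3 counts in each transgene-free library. Most of that mean came from replicate 1, and the adjusted p was 0.0473 (edgeR). Nhlh2, a factor of developing neurons, was at 0 CPM in transgene-free replicates 1, 2 and 4, at 0.141 CPM in replicate 3, and at 37.1, 1.03 and 7.90 CPM in the MYCN ganglia. Neurod6 had 3 counts in all transgene-free ganglia together and 312 in the MYCN ganglia, a pooled ratio of 118 with a 95% counting interval from 40.1 to 577. These 3 genes were near absent without MYCN and differed widely between the MYCN ganglia.

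Sox4 and Sox11, partners in early neuronal differentiation, and the zinc finger factor Myt1 were already on without the transgene; they were picked after their values were seen. Sox4 stood at 176, 101, 122.5 and 117 CPM in the transgene-free and at 616, 172 and 356 CPM in the MYCN ganglia. MYCN replicate 3 lay inside the transgene-free range for this gene, while the other two lay above it (log2 1.56 ± 0.32, adjusted p = 0.0425, edgeR). Sox11 ran from 15.4 to 38.1 CPM without and stood at 395, 36.2 and 177 CPM with MYCN, with replicate 3 again inside the range. Myt1 ran from 36.3 to 89.5 CPM and stood at 355, 101 and 195 CPM, so its groups did not overlap. Onecut2, which shapes motor and sensory neuron identity, rose from 2.18 ± 1.23 to 38.1 ± 32.1 CPM (SD, n = 4 and 3; adjusted p = 0.0397, edgeR). Tox3, a chromatin-binding factor outside the list, was at 0.675 ± 0.378 and 24.3 ± 26.2 CPM (adjusted p = 0.0263, edgeR).

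Genes of immature neurons and oncofetal genes were higher in 3 of 29 tested members (Dcx, Dlk1, Mex3a) and lower in none, against 0.834% of all genes called higher. Their median log2 fold change was 0.68, and 0.45 without MYCN replicate 1. Without MYCN replicate 3, 11 of the 29 passed, all higher, against 8.76% of all genes called higher. Dcx, a microtubule protein of migrating neuroblasts, was at 73.0, 29.0, 43.9 and 54.4 CPM in the transgene-free and at 518, 113 and 328 CPM in the MYCN ganglia. All 3 MYCN ganglia lay above all 4 transgene-free ones, and the log2 fold change was 2.67 ± 0.45 (SE, adjusted p = 0.0333, edgeR). Dlk1, a surface protein of neural crest progenitors and chromaffin cells, lay between 18.6 and 22.7 CPM in transgene-free replicates 1, 2 and 4, at 46.1 CPM in replicate 3, and at 613, 31.2 and 201 CPM with the transgene. MYCN replicate 3 was below transgene-free replicate 3 for Dlk1. Mex3a, an RNA-binding protein of progenitors, ran from 8.69 to 17.3 CPM and stood at 323, 24.2 and 179 CPM. Alk, the receptor kinase mutated in familial neuroblastoma, rose from 9.45 ± 8.59 to 97.3 ± 76.4 CPM (SD, n = 4 and 3, adjusted p = 0.0473, edgeR). It counts among the 3 of 38 growth factors and receptors that were higher, against 0.834% of all genes tested. The others were Bdnf, a neurotrophin (1.51 ± 0.642 and 24.0 ± 25.4 CPM), and Igfbpl1. Igfbpl1, a secreted protein related to insulin-like growth factor binding proteins, had 3 counts without and 1739 with MYCN, a pooled ratio of 659 (95% counting interval 225 to 3200), and stood at 79.8, 0.496 and 22.1 CPM in MYCN replicates 1, 3 and 4, a spread that the interval does not cover. That list's median was -0.32, with 12 of 38 members on the higher side, against 7726 of all 16665 genes tested. Without MYCN replicate 1 the median was -0.03 with 19 on the higher side, and without transgene-free replicate 3 it was -0.04.

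**Figure D3:**
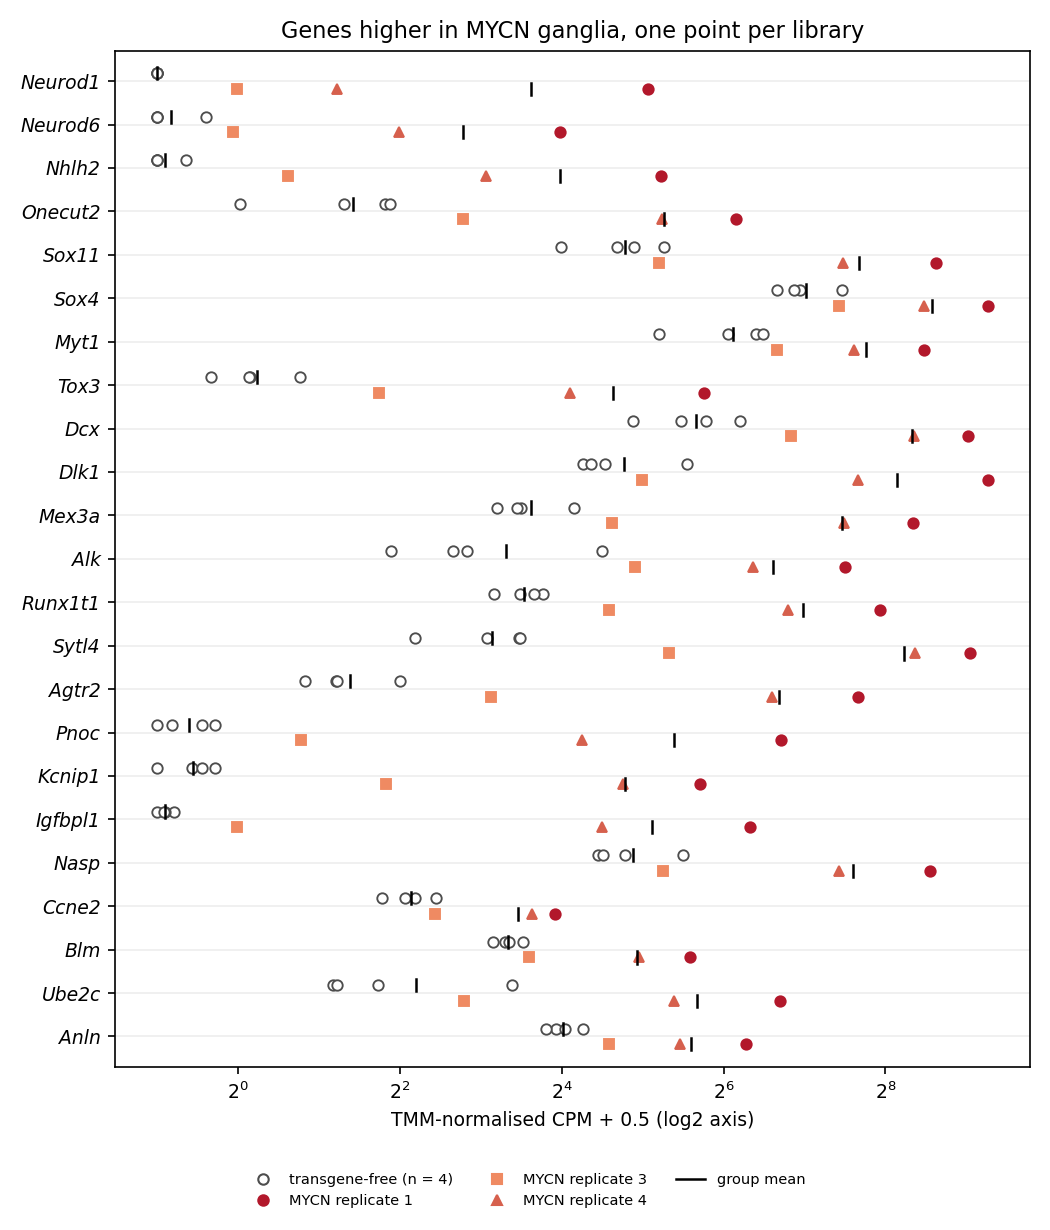
Each row is a gene higher in MYCN ganglia, with TMM-normalized CPM + 0.5 on a log2 axis; open circles are the 4 transgene-free ganglia, filled symbols MYCN replicates 1 (circle), 3 (square) and 4 (triangle), and black ticks the group means. In every row replicate 1 is farthest to the right and replicate 3 nearest to the transgene-free ganglia, as for Runx1t1 at 243, 111 and 23.4 CPM in replicates 1, 4 and 3.

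Channels, peptides and secretory genes were among the higher genes too. Sytl4, which docks secretory granules, was at 7.92, 4.08, 10.6 and 10.7 CPM without the transgene and at 527, 39.7 and 329 CPM with it. Its groups did not overlap, the log2 fold change was 5.15 ± 0.72 (SE, adjusted p = 0.0263, edgeR), and it was called in 11 of the 21 alternative analyses, as were Agtr2, Runx1t1 and Hrk. These alternatives reuse the same libraries. Agtr2, the angiotensin II type 2 receptor of fetal tissue, was at 1.28, 1.82, 3.53 and 1.83 CPM and at 202, 8.24 and 96.4 CPM. Hrk, a BH3-only activator of cell death, was at 4.82 ± 2.27 and 55.9 ± 48.4 CPM (SD, n = 4 and 3; adjusted p = 0.0289, edgeR). Pnoc, the precursor of nociceptin and 1 of 19 neuropeptide genes, rose from 0.157 ± 0.147 to 41.3 ± 55.1 CPM (adjusted p = 0.0379, edgeR), with 104 CPM in replicate 1 and 1.22 CPM in replicate 3.

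Of 86 potassium channel genes, Kcnip1, Kcnj6 and Kcnmb2 were higher and none lower, against 0.834% and 0.102% of all genes tested. The list median was -0.27, which ranged from -0.37 to -0.10 on leaving out each ganglion in turn. Without MYCN replicate 3, 7 were higher and 2 lower, where 8.76% of all genes tested were called higher and 353 of 16638 lower. Kcnip1, which binds Kv4 channels, stood between 0 and 0.320 CPM without MYCN and at 51.6, 3.05 and 26.5 CPM with it (adjusted p = 0.0263, edgeR). The groups were apart for this gene, since the lowest MYCN ganglion exceeded the highest transgene-free one. Kcnj6, the inward rectifier GIRK2, had no count in any transgene-free ganglion and was at least 16.2-fold higher against the floor. That bound is for the group mean, and Kcnj6 stood at 4.86, 0.916 and 2.63 CPM in MYCN replicates 1, 3 and 4. Kcnmb2, a subunit of the BK channel, had 1 count without and 516 with MYCN (pooled ratio 587, 95% counting interval 105 to 23230). In MYCN replicates 1, 3 and 4 Kcnmb2 was at 16.5, 0.267 and 8.50 CPM. Among 42 sodium, calcium and acid-sensing channel genes the acid-sensing Asic4 rose from 2.05 ± 0.160 to 11.7 ± 5.07 CPM (adjusted p = 0.0337, edgeR) and the calcium channel subunit Cacng4 from 9.86 ± 3.14 to 32.7 ± 13.6 CPM (adjusted p = 0.0379, edgeR), while Asic1 fell. Among 72 axon guidance genes, the repellents Slit1 (2.44 ± 2.17 and 60.8 ± 64.8 CPM) and Slit2 (26.5 ± 11.7 and 180 ± 154 CPM) and the ephrin Efnb3 (12.1 ± 5.70 and 39.2 ± 11.3 CPM) rose and the receptor Plxnc1 fell. Cbln2, which organizes synapses, was at 0.1248 ± 0.0985 and 28.1 ± 30.3 CPM, Fut9, a fucosyltransferase that makes the Lewis x antigen of progenitors, at 0.322 ± 0.112 and 14.1 ± 13.8 CPM, and the uncharacterized 5930438M14Rik at 0.0810 ± 0.0943 and 13.4 ± 13.4 CPM.

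Cell cycle genes lay mostly on the higher side with the transgene, and few of them passed the threshold. All 43 S phase genes were on the higher side, with a median log2 fold change of 1.88, and 3 of them passed (Nasp, Ccne2, Blm). Of 53 G2 and M phase genes 51 were on the higher side, with a median of 2.45, and 2 passed (Ube2c, Anln). Of all 16665 genes tested, 7726 were on the higher side and 0.834% were called higher. Nasp, a histone chaperone, was at 21.4, 44.9, 27.0 and 22.3 CPM without and at 373, 37.6 and 172 CPM with the transgene, and MYCN replicate 3 lay within the transgene-free range (log2 2.75 ± 0.54, adjusted p = 0.0394, edgeR). Ube2c, which marks mitotic cyclins for degradation, was at 1.76, 9.97, 2.82 and 1.83 CPM and at 103, 6.45 and 41.6 CPM. For both genes the highest transgene-free value was that of the lymphocyte-rich replicate 2. The cyclin Ccne2 rose from 3.92 ± 0.844 to 10.5 ± 5.03 CPM (SD, n = 4 and 3; adjusted p = 0.0481, edgeR), the DNA helicase Blm from a range of 8.39 to 11.0 CPM to one of 11.6 to 47.7 CPM (adjusted p = 0.0425, edgeR) and Anln, a scaffold of the cleavage furrow, from 15.7 ± 2.21 to 47.9 ± 26.9 CPM (adjusted p = 0.0379, edgeR). Outside the lists but past the threshold, and picked after their values were seen, were the kinetochore genes Kntc1 (4.34 and 58.6 CPM) and Dsn1 (3.02 and 17.3 CPM) and the replication fork gene Timeless (25.8 and 98.0 CPM). Without transgene-free replicate 2, 27 S phase and 40 G2 and M phase genes passed, and without MYCN replicate 3, 34 and 46 did, all of them higher, where 3.46% and 8.76% of all genes tested in these fits were called higher. On leaving out each ganglion in turn the median ranged from 1.11 to 2.52 for S phase and from 1.43 to 3.43 for G2 and M phase genes.

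The MYCN ganglia differed among themselves in the cell cycle lists. Relative to the mean of the transgene-free ganglia, the median log2 ratio of the S phase genes was 2.62, 1.62 and -0.06 for MYCN replicates 1, 4 and 3, and that of the G2 and M phase genes 3.28, 1.99 and -0.11. For the neurogenic transcription factors the same values were 2.46, 1.48 and 0.41, and for immature neuron genes 1.06, 0.67 and 0.24, while over all genes tested they were -0.12, -0.09 and -0.06. The values near 0 in MYCN replicate 3 rested on the lymphocyte-rich transgene-free replicate 2. Against the mean of the other 3 transgene-free ganglia, a comparison chosen after seeing the data, the medians in replicates 1, 4 and 3 were 3.13, 2.13 and 0.31 for S phase genes, 4.27, 2.92 and 0.65 for G2 and M phase genes, 2.33, 1.32 and 0.44 for the neurogenic factors, and 0.86, 0.51 and 0.08 for immature neuron genes. The cell cycle values were larger and those of immature neuron genes smaller than against all 4, and replicate 3 was the lowest of the MYCN ganglia in each of these 4 lists. Among all 139 higher genes, 131 stood in the order replicate 1, 4, 3 from the highest to the lowest level, and the highest MYCN ganglion exceeded the lowest by a median of 5.18-fold. Even so, 120 of the 139 had all 3 MYCN ganglia above all 4 transgene-free ones, as had 4.72% of the genes tested. Marker sums of several other cell types ran in the reverse order in MYCN replicates 3, 4 and 1, at 2258, 1255 and 604 CPM for glia, 7256, 5782 and 2012 CPM for fibroblasts and 379, 164 and 72.2 CPM for endothelium. Sums of sympathetic neuron markers did so too, at 14930, 12120 and 8739 CPM. Those of myeloid cells, at 85.3, 137 and 225 CPM, and of lymphocytes, at 8.05, 16.3 and 22.1 CPM, ran in the same order as the higher genes. Their part in the order of the higher genes was not tested.

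MYC targets gave no calls. The 35 genes of this list were mostly of ribosome production and growth, with Gspt1, Clns1a and Nap1l1 among them. Their median log2 fold change was 0.54, with 32 on the higher side, against 7726 of all 16665 genes tested. The median ratios in replicates 1, 4 and 3 were 1.02, 0.57 and -0.07, or 1.25, 0.79 and 0.08 against the transgene-free mean without replicate 2. The list median was 0.81 without transgene-free replicate 2 and 0.32 without MYCN replicate 1. Cdk4, which starts the cell cycle, was at 29.8 ± 11.1 and 92.7 ± 60.7 CPM (SD, n = 4 and 3; adjusted p = 0.0599, edgeR), and Tert, the catalytic part of telomerase, at 2.20 ± 0.525 and 7.25 ± 4.57 CPM (adjusted p = 0.0839, edgeR). Without transgene-free replicate 2, 4 of the 35 passed, and without MYCN replicate 3, 15 did, all higher, against 3.46% and 8.76% of all genes tested in the same fits. The 79 cytoplasmic ribosomal protein genes had a median of 0.14 with none past the threshold. Without transgene-free replicate 2 their median was 0.53 and 10 passed, all higher, against 3.46% of all genes tested in that fit. The 13 genes of the MYC, MAX and MXD network had a median of 0.10 with none past the threshold. On leaving out each ganglion in turn that median ranged from 0.03 to 0.18. Among 28 genes of the ETO family, RUNX factors and repressor complexes, only Runx1t1 passed, at a list median of 0.08. Without MYCN replicate 3, 7 of the 28 passed, all higher, against 8.76% of all genes called higher. Without transgene-free replicate 2, 3 of the 28 passed, all higher, against 3.46%, and the list median was 0.31.

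**Figure D4:**
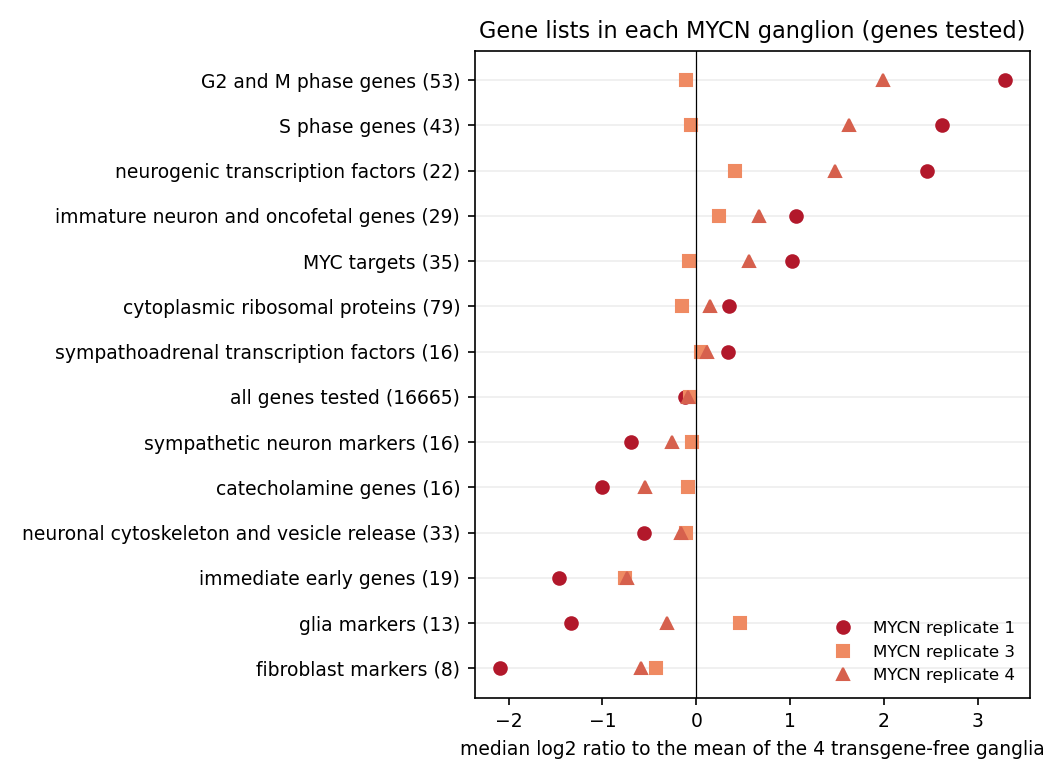
For each gene list (number of genes tested in brackets) the symbols give the median log2 ratio of MYCN replicates 1 (circle), 3 (square) and 4 (triangle) to the mean of the 4 transgene-free ganglia, after 0.5 CPM was added to both. G2 and M phase genes reach 3.28 in replicate 1 and -0.11 in replicate 3, where it was 0.65 against the transgene-free mean without replicate 2, and all genes tested lie at -0.12 to -0.06.

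No gene passed the threshold in the lists of the mature sympathetic neuron. At the shares over all genes tested, 0.834% higher and 0.102% lower, lists this short would hold few calls or none. The 16 catecholamine genes had a median log2 fold change of -0.49 and none was called: Th was at 1240, 552, 859 and 1097 CPM without and at 288, 818 and 467 CPM with MYCN (log2 -0.84 ± 0.43, adjusted p = 0.298, edgeR), and Maoa, which breaks down noradrenaline, at 1038 ± 312 and 622 ± 166 CPM (SD, n = 4 and 3; adjusted p = 0.201, edgeR). The groups overlapped for both. The 16 sympathetic neuron markers had a median of -0.25 and none was called, among them the cotransmitter Npy (538 ± 222 and 186 ± 38.9 CPM, adjusted p = 0.142, edgeR), all of whose MYCN libraries, at 170, 230 and 158 CPM, lay below the lowest transgene-free one at 285 CPM. The 16 sympathoadrenal transcription factors had a median of 0.13 and no call, and the median ranged from 0.05 to 0.30 on leaving out each ganglion in turn. Without MYCN replicate 3, 3 of them were higher and 1 lower, where 8.76% of all genes tested were called higher and 353 of 16638 lower. The 33 genes of the neuronal cytoskeleton and vesicle release had a median of -0.29 and the 13 cholinergic genes one of -0.32, with no call in either. Without transgene-free replicate 2, 1 of the 33 was higher and 2 were lower, where 3.46% of all genes tested were called higher and 103 of 16533 lower. On leaving out each ganglion in turn these medians ranged from -0.82 to -0.30 for catecholamine genes, -0.47 to -0.06 for sympathetic neuron markers, -0.48 to -0.13 for cytoskeleton and vesicle release and -0.56 to -0.06 for cholinergic genes. The 19 immediate early genes, which respond to neuronal activity and to handling of tissue, had a median of -0.85 and no call. In this list 18 were on the lower side, while of all 16665 genes tested 7726 were on the higher side. Junb of this list was at 27.0 ± 15.6 and 10.4 ± 3.41 CPM (adjusted p = 0.101, edgeR) and Arc at 12.8 ± 8.64 and 3.79 ± 1.82 CPM (adjusted p = 0.113, edgeR).

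Among the remaining receptor and adhesion lists, 1 of 37 peptide receptors rose (Agtr2) and 1 fell (Cckar), with a median of -0.15, and 1 of 21 synaptotagmins and related genes rose (Sytl4) and 1 fell (Syt10), with a median of -0.52. Of all genes tested, 0.834% were called higher and 0.102% lower. The medians were 0.12 for neuropeptides, -0.06 for sodium, calcium and acid-sensing channels and -0.12 for axon guidance genes. The axon guidance median ranged from -0.15 to -0.03 on leaving out each ganglion in turn. No gene passed among 43 glutamate, GABA and glycine receptors (median 0.13), 90 cadherins and protocadherins (0.23), 28 Hox genes (-0.16) or 5 Dlx genes (-0.21). No marker of another cell type passed either. The medians were -0.18 for glia, -0.92 for fibroblasts, -1.16 for endothelium, -1.84 for smooth muscle, -0.66 for myeloid cells, -5.37 for lymphocytes, 0.04 for erythroid cells, -2.17 for adrenal cortex, -0.63 for chromaffin cells, -0.67 for pancreas, -0.02 for fat, 1.02 for skeletal muscle and 0.32 for liver. Several of these values rested on 1 ganglion. Without transgene-free replicate 2 the median was -0.26 for lymphocyte (9 genes tested) and 0.93 for myeloid markers, and without transgene-free replicate 3 it was 0.08 for adrenal cortex and 0.05 for glia, which stood at 0.17 without MYCN replicate 1. On leaving out each ganglion in turn the medians ranged from -1.20 to -0.52 for fibroblast, -1.88 to -0.74 for endothelial and -2.19 to -1.12 for smooth muscle markers, from -3.30 to -0.24 for pancreas and 0.26 to 2.67 for skeletal muscle markers, from -1.15 to -0.44 for immediate early genes, from -0.80 to -0.26 for synaptotagmins and related genes, from 0.06 to 0.31 for cadherins and protocadherins, and from 0.02 to 0.25 for glutamate, GABA and glycine receptors. The medians of erythroid, fat and liver markers, neuropeptides, peptide receptors, sodium, calcium and acid-sensing channels, Hox, Dlx and ribosomal protein genes and the list with Runx1t1 also changed sign on leaving out at least 1 ganglion. Of the 156 genes called, 121 stood in none of the lists.

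The 17 lower genes behaved differently across the MYCN ganglia. All 17 had the 3 MYCN ganglia below the 4 transgene-free ones, as had 4.45% of the genes tested, and the highest MYCN ganglion exceeded the lowest by a median of only 1.49-fold (range 1.04 to 3.72), against 5.18-fold for the higher genes. Relative to the transgene-free mean the median log2 ratio of the 17 was -1.57, -1.05 and -1.40 for MYCN replicates 1, 3 and 4, and that of the 139 higher genes 2.99, 0.60 and 2.14. Replicate 3, nearest to the transgene-free ganglia for the higher genes, thus had most of the difference seen for the lower ones. The genes were chosen by this contrast, so these values describe them and are not a test.

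The lower gene with the smallest adjusted p was Tmed8 (chr12:87166237-87200454, GRCm38). It was at 71.2, 76.4, 74.6 and 79.0 CPM without the transgene and at 39.0, 37.4 and 37.9 CPM with it. Both groups were tight and far apart, with a log2 fold change of -0.98 ± 0.12 (SE, adjusted p = 0.0263, edgeR). Amigo2, an adhesion protein of neurons that promotes survival, was at 42.4, 38.4, 52.7 and 39.8 CPM and at 18.3, 19.6 and 16.1 CPM. It fell by 1.27 ± 0.21 on the log2 scale (adjusted p = 0.0313, edgeR). Gclc, the catalytic subunit of the enzyme that limits glutathione synthesis, was at 196, 125, 142 and 125 CPM and at 65.8, 72.6 and 48.6 CPM, with a log2 fold change of -1.24 ± 0.27 (adjusted p = 0.0485, edgeR). Lrrk2, the kinase mutated in familial Parkinson's disease, was at 46.6, 96.3, 53.7 and 56.2 CPM and at 13.1, 30.2 and 18.3 CPM. The groups of both genes were apart, although Lrrk2 varied more within each of them.

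Among receptors and channels, Cckar, the receptor for cholecystokinin, was at 26.7, 42.1, 66.3 and 56.2 CPM in the transgene-free and at 12.8, 12.02 and 4.13 CPM in the MYCN ganglia, so the highest MYCN value was less than the lowest transgene-free one. Its log2 fold change was -2.32 ± 0.46 (SE, adjusted p = 0.0397, edgeR). Asic1, a proton-gated sodium channel of neurons, was at 4.88, 11.1, 13.1 and 11.1 CPM and at 2.20, 2.63 and 2.07 CPM, a log2 fold change of -2.13 ± 0.39 (adjusted p = 0.0378, edgeR). The MYCN ganglia were nearly level for Asic1. Syt10, a calcium sensor of secretion, was at 3.61 ± 0.607 and 0.452 ± 0.347 CPM (SD, n = 4 and 3; adjusted p = 0.0486, edgeR), and the semaphorin receptor Plxnc1 at 132 ± 15.95 and 70.4 ± 5.06 CPM (adjusted p = 0.0353, edgeR). Asic1 and Asic4, members of 1 channel family, thus moved in opposite directions.

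Among the remaining lower genes Chst7, a sulfotransferase of chondroitin chains, was at 13.5 ± 4.86 and 3.60 ± 0.979 CPM, Asah2, the neutral ceramidase, at 24.1 ± 4.99 and 9.76 ± 3.12 CPM, and the lysosomal transporter gene Pqlc3 at 11.4 ± 1.94 and 4.11 ± 0.895 CPM (SD, n = 4 and 3). Pstpip1, an adaptor best known from leukocytes, was at 15.0, 26.8, 12.2 and 27.9 CPM and at 5.87, 5.802 and 6.61 CPM, and Rassf5, a Ras-binding adaptor also known from lymphocytes, at 49.7, 72.1, 25.2 and 34.6 CPM and at 15.0, 19.7 and 16.4 CPM. For Rassf5 the highest value was that of the lymphocyte-rich transgene-free replicate 2. Without that library the adjusted p was 0.0428 for Pstpip1 and 0.0350 for Rassf5 (edgeR), and both still fell. Ttc39b, a repeat protein of lipid metabolism, was at 58.6 ± 8.41 and 26.9 ± 5.95 CPM. Asap1, a regulator of ARF proteins (209 ± 27.1 and 127 ± 6.78 CPM), Efr3a, an anchor of a phosphoinositide kinase at the plasma membrane (236 ± 43.0 and 117 ± 29.1 CPM), and Angptl6, a secreted angiopoietin-like protein (12.8 ± 0.733 and 6.72 ± 1.203 CPM), were picked after their values were seen.

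**Figure D5:**
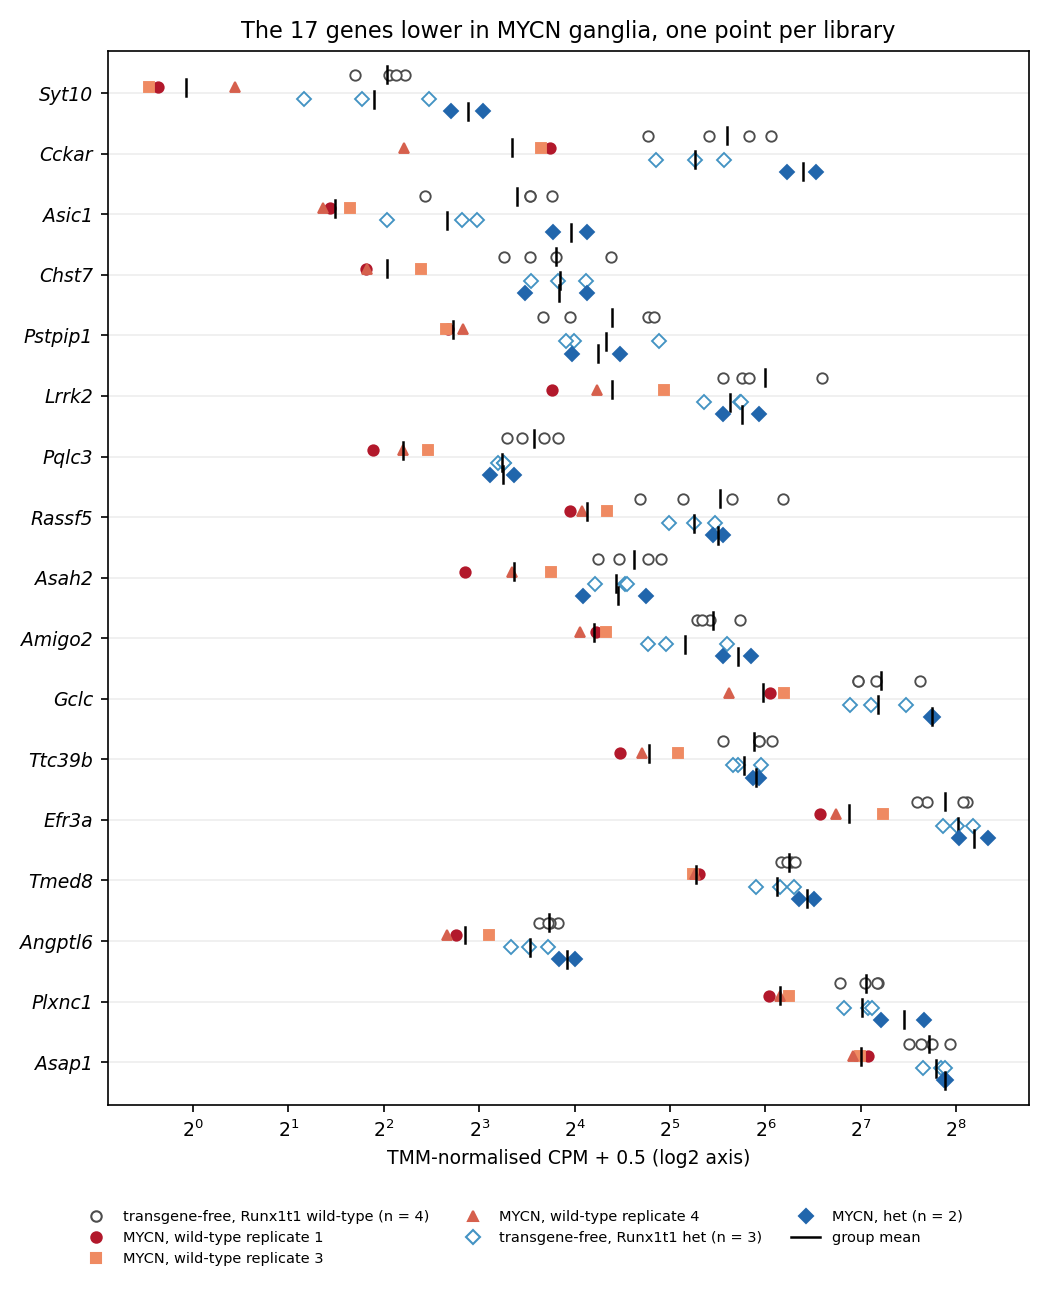
Each row is 1 of the 17 lower genes, with TMM-normalized CPM + 0.5 on a log2 axis; open circles are transgene-free and filled red symbols MYCN ganglia with wild-type Runx1t1, open and filled blue diamonds transgene-free and MYCN ganglia labelled Runx1t1 het, and ticks the group means. The red symbols lie left of the open circles in all 17 rows, while in no row do both filled diamonds lie left of all 3 open ones.

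The ganglia labelled Runx1t1 het are in neither group of the contrast that chose these genes, although they entered its fit and its estimate of the spread. Of the 139 higher genes, 60 had both MYCN ganglia labelled het above all 3 transgene-free ones with the same label, against 10.5% of the genes tested, and the mean was on the higher side in 119. Of the 17 lower genes, 0 had both below all 3, against 11.9% of the genes tested, and the mean of the MYCN ganglia was the higher one in 15. Over all 16665 genes tested, the mean of the MYCN ganglia labelled het was the higher one in 7920. Tmed8 was at 70.6, 78.1 and 59.1 CPM in transgene-free and at 81.0 and 90.8 CPM in MYCN ganglia labelled het. Cckar was at 46.9, 38.0 and 28.5 CPM and at 92.2 and 74.6 CPM, and Asic1 at 7.37, 6.57 and 3.61 CPM and at 17.04 and 13.2 CPM. All 3 genes were higher with MYCN there. Runx1t1 was at 13.3, 13.1 and 18.2 CPM and at 25.3 and 49.9 CPM, levels that do not set the label het apart from wild type by its RNA. G2 and M phase genes had a median log2 ratio of 1.37 between the het means and S phase genes one of 0.68, against -0.01 over all genes tested.

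A test of the difference between both MYCN effects, wild-type minus het, called 0 genes (edgeR's quasi-likelihood test, Benjamini-Hochberg adjustment), which is 0% of those tested, with 937 or 5.62% at an unadjusted p under 0.05, while DESeq2 called 31 and limma voom with sample weights 936. The smallest adjusted p was that of Tmed8, 0.129, with a difference of -1.29 on the log2 scale. Of the 17 lower genes all had an unadjusted p under 0.05 for this difference, but the wild-type ganglia in it are those that chose them. In tumors, Cckar stood between 0 and 0.0842 CPM and Syt10 had 0 counts in all 4, while Tmed8 was at 28.8 to 34.4 CPM and Runx1t1 at 122.9 to 227 CPM, values given without a test.

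The E-box CACGTG, the best known binding motif of MYC and MAX and its own reverse complement, was looked for in RefSeq promoter windows of 300 bases (250 before to 50 after each start, GRCm38.p6). It occurred in 7.15% of all 32851 windows and, counted by gene, for 10.9% of the 13013 tested genes with a window. A window was matched for 105 of the 139 higher and 13 of the 17 lower genes, under 80% of either set, so a comparison of shares with other genes is void. The motif was found for 6 of the matched higher genes (Adcy1, Anln, Creb5, Igsf9, Ivns1abp and Nkain1) and 1 lower gene (Tmed8). Anln and Tmed8 are described above, and the other 5 were picked after their values were seen. The sites are shown in 30 bases each, 5′ to 3′ on the strand of the gene, with the motif in capitals, to let the flanking bases be compared. A match is a description of the letters and not a site of binding.
Tmed8 (lower), chr12:87200348-87200377, minus strand: ccccgcccctctCACGTGtcaggccagcgc
Anln (higher), chr9:22389254-22389283, minus strand: acttggccgcatCACGTGacctagctcagg
Adcy1 (higher), chr11:7063252-7063281, plus strand: ggtgcccaaggtCACGTGgccccttgggcg
Creb5 (higher), chr6:53287242-53287271, plus strand: gttcaggaatccCACGTGacgtcaccgggg
Igsf9 (higher), chr1:172482030-172482059, plus strand: gcgaccagagccCACGTGcgaccgcgtctt
Ivns1abp (higher), chr1:151344478-151344507, plus strand: ttggcggcagcgCACGTGgtgacgtgcgag
Nkain1 (higher), chr4:130574173-130574202, minus strand: tggcggccgagcCACGTGgtgggccgggaa
The sites of Tmed8, Igsf9 and Ivns1abp lie inside the intervals that GENCODE gives for these genes. For Tmed8 and Igsf9 the motif begins at -136 and -171 relative to the RefSeq start, which itself lies inside the GENCODE interval. For Ivns1abp it begins at 4 and at -8 relative to different RefSeq starts. The full stretches on either side differed from gene to gene, although some genes shared the nearest bases. Right after the motif, Ivns1abp and Nkain1 both had gtg, and Anln and Creb5 both had ac.

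By position, the higher genes were spread over the chromosomes, with 15 on chromosome 2, 14 on chromosome 11 and 9 on the X chromosome. These are 11.2%, 10.4% and 6.72% of the higher genes with a single annotated position. The shares of the tested genes with a single annotated position were 7.88%, 8.15% and 3.45%. Of the 17 lower genes 6 lay on chromosome 15, which is 35.3% of them, against 4.04% of the tested genes with a single annotated position. They were Asap1 (chr15:64086857-64382919), Efr3a (chr15:65787034-65873816), Syt10 (chr15:89782393-89841860), Lrrk2 (chr15:91673175-91816120), Amigo2 (chr15:97244125-97247287) and Asic1 (chr15:99670368-99701130). On this chromosome 5.59% of tested genes had all MYCN below all transgene-free ganglia, against 4.45% of all genes tested, and its median log2 fold change was -0.05. No test of position was made.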

How the data were processed

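Celiac ganglia were cleaned of surrounding tissue, and RNA was sequenced as stranded, paired-end libraries. The study's methods name a total RNA kit and the labels polyA RNA, so how ribosomal RNA was removed, which bears on the shares of Rn45s, is uncertain. The authors aligned the reads with STAR to the mouse genome mm10 and processed them with SAMtools and RSEM, whose deposited expected counts and TPM values per gene were used here. RSEM shares out reads that fit several genes, so near-identical copies are uncertain, as are overlapping genes, since the strand setting of the counting is not given in the sources used here.

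Expected counts were rounded to whole numbers. All 16 libraries in 5 groups were fitted with edgeR 4.0.16 (quasi-likelihood test, filterByExpr, TMM, Benjamini-Hochberg threshold 0.05) in R 4.3.3, and the contrast was MYCN minus transgene-free ganglia with wild-type Runx1t1. TPM, per length, was used only to select named genes, with a mean of at least 1. CPM ranges and SDs describe libraries. Alternatives, 21 in all, covered upper-quartile normalization, DESeq2 1.42.0, limma 3.58.1 (voom with sample weights), filters, terms for depth, sex and replicate number, subsets of libraries, a minimum fold change, and leaving out Rn45s or each ganglion. In simulated counts for 3 against 4 libraries (16404 genes), edgeR recovered 70% of 4-fold and 84% of 8-fold changes with 1 false call, DESeq2 83% and 92% with 47, and limma voom 65% and 82% with 4. Only genes well counted in transgene-free ganglia were changed, and each gene varied independently around a single mean per group. The simulation held no shift shared by the genes of a library and no changed gene near 0 counts, so its rates do not carry over to the calls above.

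The ganglia and 39 gene lists were chosen with earlier results of these data known. Named genes were at most 10 higher and 10 lower by fold change among genes whose groups did not overlap, the 6 with the smallest adjusted p, at most 6 with the most even MYCN ganglia and at least 2-fold changed, at most 6 called in the most alternatives, at most 4 per list (or the 2 with the smallest p where none passed), and genes the study is about; most members of lists without a call are summarised, not named, and a few results are not reported here. A floor of 3 counts per library stood in for 0, and 0.5 CPM was added in ratios of single libraries. Intervals and floors cover counting error only. Positions are those of GENCODE vM21 on GRCm38, and promoters those of RefSeq on GRCm38.p6.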

Additional observations from a re-analysis of the deposited data

Results flagged for a closer look

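Among 63 genes examined for this, with more than 3 counts in the transgene-free ganglia together, 4 had 1 ganglion whose gap to its nearest neighbour took up more of the group's range than Dixon's 95% critical value for 4 samples allows. Chance marks about 1 in 20 such groups. Transgene-free replicate 3 was the high one for Dlk1, at 46.1 CPM, above MYCN replicate 3. It was also the high one for Nhlh2, at 0.141 CPM or 4 counts, but with 0 in the other 3 libraries any count is marked, so this mark carries no weight. Transgene-free replicate 2, the ganglion with high lymphocyte and myeloid markers, was the high one for Ube2c, at 9.97 CPM, and for Nap1l1, at 316 CPM.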

How the results depend on the processing

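Of the 156 genes called (139 higher and 17 lower), those tested kept their direction in all 21 alternatives, but the number called moved from 0 to 5326. The genes were chosen by this contrast and the alternatives reuse its libraries, so the kept direction is no independent support. The alternative with a minimum fold change is the main fit with a cut added, and its directions are the same by construction. The counts, total with higher and lower, were 238 with upper-quartile normalization (220 and 18), 1285 with DESeq2 (930 and 355), 5326 with limma voom and sample weights (2796 and 2530), 308 with a term for depth (282 and 26), 50 with a term for sex (41 and 9), and 236 without Rn45s (219 and 17). With at least 10 counts in every library 219 of 12271 genes tested were called (192 and 27). With only the 2 groups, only the 12 ganglia, only libraries over 20000000 counts and only those under 20000000 counts, edgeR called 0 genes in total and in each direction, with 1789, 3174, 1344 and 1876 at an unadjusted p under 0.05. Leaving out each ganglion in turn gave 0 to 1811 genes (0 to 1458 higher, 0 to 353 lower): 675 without transgene-free replicate 2, 1811 without MYCN replicate 3, and 0 without any one of the other 5. Subsets hold fewer samples, and the cause of these shifts was not tested. The difference of the MYCN effect between wild-type and het ganglia had 31 calls with DESeq2 and 936 with limma voom. The adjusted p of the 156 genes ran up to 0.0465 without transgene-free replicate 2 and from 0.0884 to 0.422 without MYCN replicate 1.

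With the replicate number as a replicate block, edgeR called 0 genes (2865 at an unadjusted p under 0.05), in total and in each direction, and the smallest adjusted p was 0.0709. The numbers do not pair the ganglia: deviations of same-numbered ganglia correlated at 0.0695, 0.318 and -0.0729 for numbers 1, 3 and 4.

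Among genes without a call, Hand2 turned from 0.03 to -0.12 on the log2 scale with limma voom, to -0.01 (-0.0069) with the replicate block, and ranged from -0.17 to 0.28 when single ganglia were left out. On leaving out single ganglia Gspt1 ranged from -0.071 to 0.35. Nap1l1 ranged from -0.033 to 0.40. Of 53 named genes that were called, 53 kept their call with upper-quartile normalization, DESeq2, without Rn45s, without transgene-free replicate 2 and without MYCN replicate 3, and 22 with a term for sex. The fit of libraries under 20000000 counts held 1 MYCN ganglion and 2 without the transgene, and the lone ganglion was assumed to vary like the other groups.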
